A study of Mus musculus with 4 samples.

Results

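Immediate early genes are transcribed within minutes of a signal, without the need for new protein, and many carry binding sites for CREB, the transcription factor that protein kinase A phosphorylates when cyclic AMP rises. Receptors that couple to the G protein Gs raise cyclic AMP, and in an acute response these genes go up and come down again within hours. The 10 genes described here were chosen by name for that role: the AP-1 subunits Fos, Fosb, Jun and Junb, the transcription factors Egr1 and Nr4a1, the CREB family member Crem, the phosphatase gene Dusp1, the early response gene Ier3, and Areg, which encodes the EGF receptor ligand amphiregulin. They are 10 of the 32285 genes in the count tables, and all 10 had enough counts to be compared in each pair of libraries. These genes, and the gene lists set beside them, were chosen with earlier results of these data known. Counts over them may therefore not be independent of these data.

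They were measured by single-cell RNA sequencing in myeloid-derived suppressor cells (MDSCs), grown in vitro from the bone marrow of C57BL/6 mice of 6 to 10 weeks with GM-CSF and IL-6, both at 40 ng/ml, then sorted as live CD11b+ cells and profiled on day 4. Wild-type (WT) cultures received PBS or isoproterenol (ISO), a pan-β-adrenergic agonist, at 10 µM, added fresh each day from the start of culture. The values thus describe cells after repeated additions. The time from the last addition to harvest is not given in the sources used here. The same treatments were given to cultures from knockout (KO) mice on the C57BL/6 background, which lack a receptor gene. Groups were read from the sample titles, since the treatment field of the labels gives isoproterenol for all 4 samples. Each of the 4 groups (WT+PBS, WT+ISO, KO+PBS and KO+ISO) is 1 library, the number of animals behind each is not given in the sources used here, and cells carried tags so that the cultures could be pooled before capture.

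With 1 library per group there was no replicate and no test was made. Levels are counts of unique molecular identifiers (UMIs) summed over the cells of a library, per 1000000 UMIs of that library (CPM), and the 95% intervals cover counting error only, not the spread between cultures or animals. After filtering, the libraries held 2039 to 2790 cells and 19357824 to 29400468 UMIs, with a median of 7484 to 10252 UMIs per cell, the highest in WT+ISO. No barcode of the 9525 was shared between libraries. Xist was at 359 to 389 CPM and Nnt had 0 UMIs in all 4 libraries.

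The genotype of the KO libraries rests on their labels alone, here and in every comparison of genotypes that follows. The 3 eosinophil markers, which differed between PBS and ISO in both genotypes, summed to 51.45 CPM with PBS and 1.16 with ISO in WT, and to 73.6 and 1.14 in the libraries labelled KO.

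The promoters of the members were searched for the element that CREB binds. RefSeq windows of the 250 bases before the start site (GRCm38.p6, the mouse build also called mm10) were found for 8 members, all except Crem and Egr1. The motifs were the full cyclic AMP response element (CRE), TGACGTCA, and its core, TGACG, read on either strand as TGACG or CGTCA, so that each full CRE also counts as 2 overlapping cores. Areg and Dusp1 held the full element, which 1.55% of the 32851 windows of 27025 mouse genes hold, and 6 of the 8 members (these 2 with Fos, Fosb, Junb and Nr4a1) held at least 1 core, which 17.8% of windows hold. Jun and Ier3 held none. No member's window held an AP-1 site (TGACTCA or TGAGTCA, in 4.46% of windows) or a serum response element (in 1.47%). The members were chosen as genes that respond to CREB, so their shares are not independent of that choice. The search covered only these 250 bases and fixed patterns. Elements farther upstream or with other letters would be missed, so these members are not shown to lack them. The 4 windows printed here are shown because they belong to the members with the lowest ISO-to-PBS ratios in WT, Areg, Dusp1 and Fos, and to Nr4a1, whose window holds the most cores, 4. Each runs 5′ to 3′ toward the start site, with full elements and cores in capitals.

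Areg, chr5:91139349-91139598, plus strand: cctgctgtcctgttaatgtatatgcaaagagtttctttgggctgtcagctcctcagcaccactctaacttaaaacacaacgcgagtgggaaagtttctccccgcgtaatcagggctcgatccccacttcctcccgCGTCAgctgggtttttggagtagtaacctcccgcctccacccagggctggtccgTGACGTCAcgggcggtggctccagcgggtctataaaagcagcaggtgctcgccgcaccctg
Dusp1, chr17:26508473-26508722, minus strand: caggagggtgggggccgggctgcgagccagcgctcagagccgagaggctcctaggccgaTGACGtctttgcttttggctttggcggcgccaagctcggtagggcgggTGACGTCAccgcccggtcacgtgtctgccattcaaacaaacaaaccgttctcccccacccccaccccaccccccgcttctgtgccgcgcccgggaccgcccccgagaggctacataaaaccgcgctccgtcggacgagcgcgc
Fos, chr12:85473640-85473889, plus strand: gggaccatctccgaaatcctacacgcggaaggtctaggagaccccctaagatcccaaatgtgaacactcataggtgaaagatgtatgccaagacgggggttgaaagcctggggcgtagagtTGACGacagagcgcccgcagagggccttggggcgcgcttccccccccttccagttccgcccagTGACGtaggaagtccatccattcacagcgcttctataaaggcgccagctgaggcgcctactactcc
Nr4a1, chr15:101266596-101266845, plus strand: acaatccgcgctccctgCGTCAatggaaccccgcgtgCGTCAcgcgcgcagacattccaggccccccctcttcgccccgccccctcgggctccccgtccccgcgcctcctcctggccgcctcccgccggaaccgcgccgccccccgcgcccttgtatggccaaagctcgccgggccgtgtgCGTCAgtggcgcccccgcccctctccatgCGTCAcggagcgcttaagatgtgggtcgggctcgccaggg

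The full CRE began 61 bases before the Areg start and 143 bases before the Dusp1 start. The Fos cores began 129 and 66 bases before its start, and those of Nr4a1 at 233, 213, 69 and 40 bases. The Nr4a1 window lies inside the annotated span of the gene (chr15:101253902-101274795), before a start within it. The other spans are Areg chr5:91139599-91148432, Dusp1 chr17:26505591-26508472, Fos chr12:85473890-85477274, Fosb chr7:19302696-19310118, Jun chr4:95049036-95052222, Junb chr8:84976909-84978748 and Ier3 chr17:35821713-35822911, each given for the whole gene.

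The first comparison asked whether the genes were higher or lower after 4 days with ISO in WT cells. All 10 were lower in WT+ISO than in WT+PBS, each with a counting interval below 0 on the log2 scale, whereas 53.4% of the 11852 genes compared were lower at all. The median log2 ratio of the members was -0.49 and that of all genes -0.02. Summed over the members the level was 1023 CPM with PBS and 751 with ISO, a log2 ratio of -0.45 (-0.47 to -0.42). The 8 dendritic cell markers moved the same way in WT, with a sum of 969.6 CPM with PBS and 327.5 with ISO, and stood at 1117 and 840 CPM in the libraries labelled KO. None of the 8 was at 0 in any library, and their part in the members' result was not tested. Areg, Dusp1 and Fos, 3 of 10, were lower by at least 1.5-fold, against 6.82% of all genes, and none was higher by that much, against 1.66%. The count of 3 depended on how cells were weighed: it was 6 with equal weight per cell, and 1, Areg alone, without cells under 4000 UMIs or without the cluster of low-RNA cells described later (cluster 2).

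**Figure D1:**
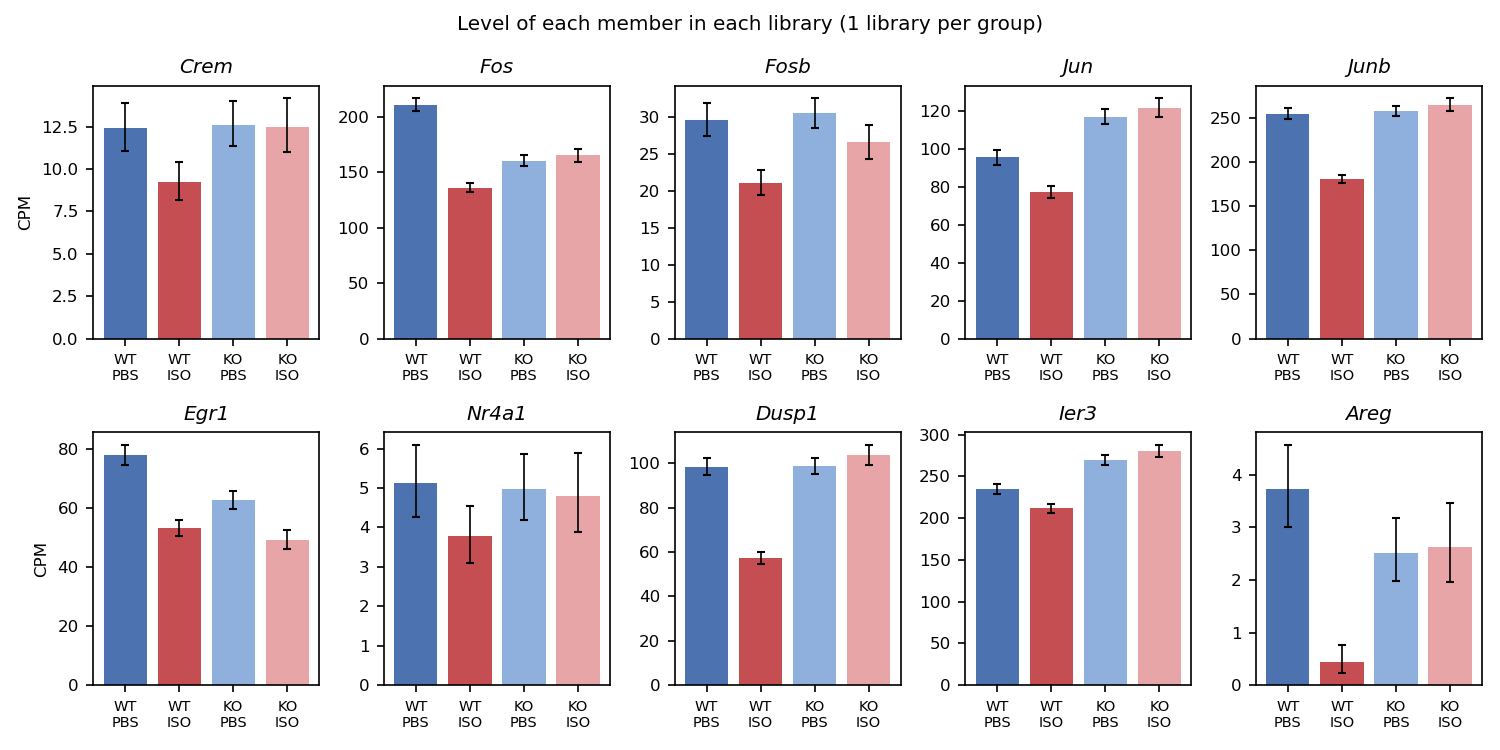
Level of each member in the 4 libraries, in CPM, with 95% counting intervals as bars. WT+ISO has the lowest bar for 9 of the 10 genes, and for Egr1 both ISO libraries, at 53.2 and 49.1 CPM, lie below their PBS libraries.

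Areg, a growth factor of the EGF family that myeloid cells release in tissue repair, showed the lowest ratio. Its 91 UMIs in WT+PBS (3.73 CPM) stood against 13 in WT+ISO (0.442 CPM), a log2 ratio of -3.08 (-4.04 to -2.23), or 8.44-fold lower. The libraries labelled KO held 72 UMIs with PBS (2.52 CPM) and 51 with ISO (2.63 CPM), and their intervals, 1.97 to 3.18 and 1.96 to 3.46, overlap each other and lie above that of WT+ISO. The gene was found in few cells: 42 of 2210 in WT+PBS, 6 of 2264 in WT+ISO, 43 of 2790 and 27 of 2039. The 5 cells with the most Areg UMIs held 42.9% of them with PBS and 92.3% with ISO in WT, which makes Areg the member that rests on the fewest cells.

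Dusp1 encodes a nuclear phosphatase that switches off MAP kinases. It stood at 98.4 CPM (94.5 to 102) with PBS and 57.2 (54.5 to 60.1) with ISO in WT, a log2 ratio of -0.78 (-0.87 to -0.69), or 1.72-fold lower. The libraries labelled KO were at 98.5 CPM with PBS and 104 with ISO, with intervals that overlap that of WT+PBS. The WT+ISO library alone was low.

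Among the AP-1 subunits, which pair as Fos-Jun dimers on DNA, Fos was at 211 CPM with PBS and 136 with ISO in WT (log2 ratio -0.63, -0.69 to -0.57). The KO-labelled libraries stood between these, at 161 CPM with PBS and 166 with ISO. Junb was at 254 CPM in WT+PBS, 181 in WT+ISO and 257 and 265 in the libraries labelled KO, a WT log2 ratio of -0.49 (-0.55 to -0.44). Here 3 libraries lay together and WT+ISO lay below them. Fosb was at 29.6, 21.1, 30.5 and 26.6 CPM in the same order, with both ISO libraries below their PBS libraries. Jun was at 95.6, 77.2, 117 and 122 CPM, so that both KO-labelled libraries lay above both WT libraries.

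Egr1, a zinc finger factor induced by growth factors and stress, had another pattern. It stood at 77.8 CPM with PBS and 53.2 with ISO in WT (log2 ratio -0.55, -0.65 to -0.45), and at 62.5 and 49.1 CPM in the libraries labelled KO (-0.35, -0.46 to -0.23). It was thus lower with ISO under both genotype labels. Nr4a1, the orphan nuclear receptor Nur77, had only 93 to 142 UMIs per library. Its levels were 5.12, 3.78, 4.97 and 4.80 CPM, and the WT log2 ratio of -0.44 had an interval of -0.82 to -0.06. Crem, whose internal promoter gives the CREB repressor ICER, was at 12.4 CPM with PBS and 9.22 with ISO in WT (-0.43, -0.67 to -0.19), and at 12.6 and 12.5 CPM in the KO-labelled libraries. The WT ratio of Crem was -0.19 with clusters held at fixed weights, as described later, and 0.14 with depth bins within clusters held as well. The counts do not tell ICER from the other Crem transcripts.

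Ier3, a stress-induced gene, differed least in WT. It was at 235 CPM in WT+PBS, 212 in WT+ISO, 269 in KO+PBS and 281 in KO+ISO, and its WT log2 ratio was -0.15 (-0.20 to -0.10). With the clusters of cells held at the same weights in every library, that ratio was 0.03, so the Ier3 direction does not hold once the mix of cells is fixed.

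The KO-labelled cultures address whether the ISO difference is also seen under the KO genotype label. In them the members' median ISO log2 ratio was 0.04, that of all genes -0.04, and the summed level was 1016 CPM with PBS and 1032 with ISO (0.02, -0.00 to 0.05). No member was past 1.5-fold in either direction, against 1.77% of 11849 genes lower and 1.4% higher. Intervals lay below 0 for Fosb (-0.20, -0.36 to -0.04) and Egr1, and above 0 for Ier3 (0.06, 0.01 to 0.11). The difference between the ISO log2 ratios, WT minus KO, was -0.47 (-0.51 to -0.43) for the summed members. For single members it ran from -3.14 (-4.13 to -2.16) for Areg through -0.86 (-0.98 to -0.73) for Dusp1 and -0.68 (-0.76 to -0.59) for Fos to -0.20 (-0.35 to -0.05) for Egr1. Its interval lay below 0 for 9 of the 10 members and held 0 for Nr4a1 (-0.39, -0.92 to 0.14).

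**Figure D2:**
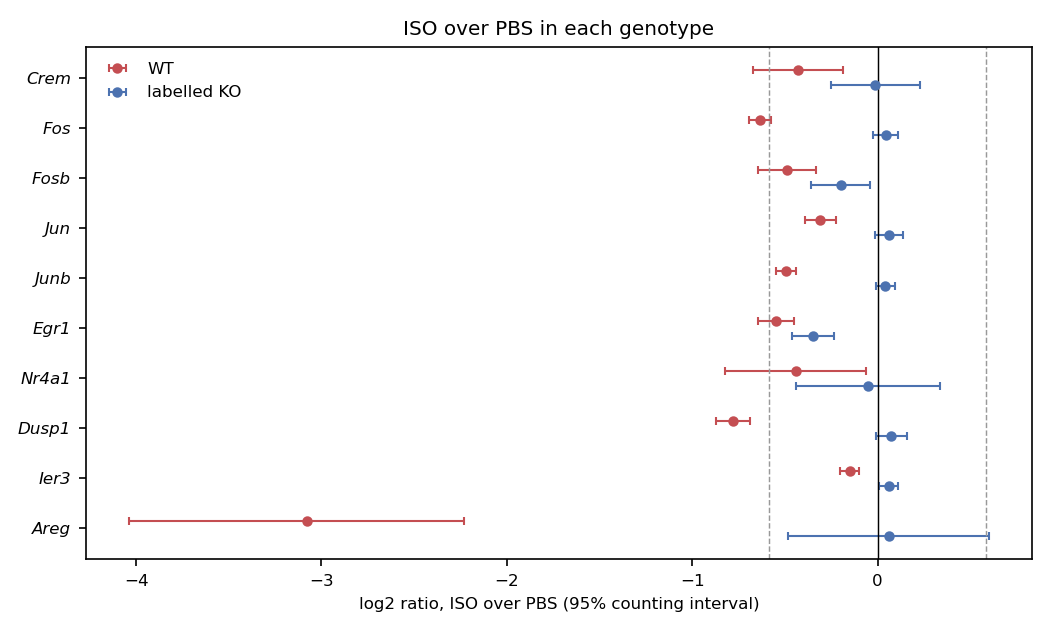
Log2 ratio of CPM, ISO over PBS, for each member in WT (red) and in the libraries labelled KO (blue), with 95% counting intervals as bars and dashed lines at 1.5-fold. All 10 WT points lie left of 0, and 6 of the 10 KO points lie right of it.

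Between genotypes without ISO, the members differed in no common direction. In KO+PBS against WT+PBS their median log2 ratio was 0.01, none was past 1.5-fold lower or higher, and 2.21% and 3.93% of 11968 genes were. Fos (-0.40), Egr1 (-0.32) and Areg (-0.57) were lower in the library labelled KO and Jun (0.29) and Ier3 (0.20) higher, each with an interval that left out 0. With ISO in both, 9 of the 10 members were higher in the library labelled KO than in WT+ISO, 8 of them with intervals above 0. Nr4a1 was higher with an interval that held 0 (0.35, -0.07 to 0.76), and Egr1 was not higher (-0.11, -0.23 to 0.00). The members' median was 0.42 and that of all genes -0.01, and the share of all genes higher at all is not given here. Areg, Dusp1 and Jun were higher by at least 1.5-fold, against 10.6% of 11714 genes. No member was lower by that much, against 7.21%. The last 2 comparisons share their libraries with the first 2.

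To see which cells carried these genes, the 9303 cells of the 4 libraries were clustered together without the members or the gene lists used here. The 7 clusters were mature neutrophil-like cells (cluster 0, led by Retnlg, Mmp9 and Ly6g), cells led by Mmp12 and Mrc1 with monocyte and macrophage markers (cluster 1), cells led by Gpnmb, Ccl4 and Il1b with few UMIs per cell (cluster 2, left unnamed), neutrophil progenitor-like cells of the azurophil granule stage (cluster 3, Elane and Mpo), specific-granule neutrophil-like cells (cluster 4, Ltf and Camp), RNA-rich cells led by Kcnq5 and Phgdh (cluster 5, unnamed), and dendritic cell-like cells (cluster 6, Ccr7 and H2-Aa, 103 cells). Their median depth ran from 2928 UMIs in cluster 2 to 21665 in cluster 5.

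The members together were highest in cluster 2 and lowest in cluster 3 in each of the 4 libraries. In WT+PBS their sum was 2493 CPM in cluster 2, 1434 in the mature neutrophil-like cells, 1266 in the Mmp12 cluster, 1080 in the dendritic cell-like cells, 723 in cluster 5, 623 in the specific-granule cells and 428 in the progenitor-like cells, and the counting intervals of each neighbouring pair in that order lay apart. Ier3 gave the same top and bottom in all 4 libraries: 789, 651, 874 and 875 CPM in cluster 2 and 91.7, 75.1, 102.5 and 112.5 CPM in cluster 3, in the order WT+PBS, WT+ISO, KO+PBS and KO+ISO. Egr1 and Dusp1 were also highest in cluster 2 in every library, with mature neutrophil-like cells next for Dusp1 (244, 107, 206 and 196 CPM), although for Egr1 the intervals of cluster 2 and the next cluster overlapped in all libraries except KO+PBS. Fos was highest in cluster 2 in 3 libraries (477, 239 and 322 CPM) but in WT+ISO stood at 231 CPM there and 256 in the Mmp12 cluster, with overlapping intervals.

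**Figure D3:**
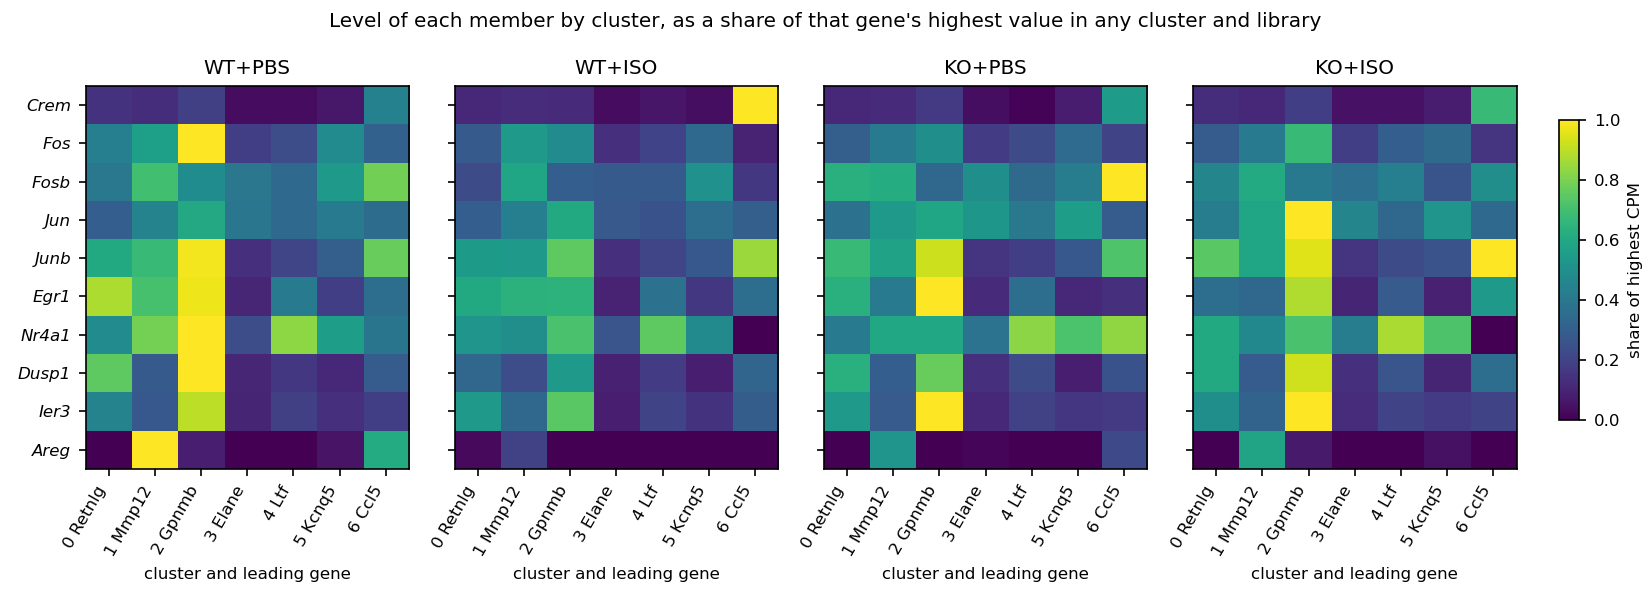
Level of each member in 7 clusters and 4 libraries, as a share of that gene's highest CPM in any of them (dark 0, yellow 1). Of the 10 genes, 6 peak in cluster 2, Crem, Fosb and Junb peak in the dendritic cell-like cluster 6, and Areg peaks in cluster 1, with its 6.83 CPM in cluster 6 of WT+PBS resting on 4 UMIs.

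Crem and Areg had other patterns. Crem was highest in the dendritic cell-like cells in every library, at 54.6, 124, 68.8 and 83.7 CPM from 32, 27, 28 and 15 UMIs, and in each library its interval there lay above that of the next cluster. Areg was almost confined to the Mmp12 cluster, which held 91.2%, 92.3%, 97.2% and 96.1% of its UMIs in the 4 libraries. Per UMI of the cluster, the few Areg UMIs of the dendritic cell-like cells in WT+PBS gave 6.83 CPM (1.86 to 17.5), which overlaps the 11.1 CPM of the Mmp12 cluster. Neutrophil progenitor-like cells, at a like depth, held 1 Areg UMI in 1630 cells. Jun was also highest in cluster 2 in the 4 libraries (138, 139, 134 and 228 CPM), although in KO+PBS the interval of the next cluster overlapped. It stood between 68.4 and 138 CPM over the clusters of WT+PBS, and apart from cluster 2 all neighbours in its order overlapped there. For Fosb and Nr4a1 all neighbouring clusters overlapped in each library.

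Genes of a given cell type were also seen at low levels in others. Elane, a gene of the progenitor-like cells at 2856 to 4428 CPM there, had 21.0 to 72.1 CPM in the Mmp12 cluster, with a UMI in 26.7% to 29.8% of its cells at a median of 13668 to 18050 UMIs. C1qb, a macrophage gene, had a UMI in 0% to 0.712% of progenitor-like cells. Whether free RNA, doublets or low expression gave these UMIs was not tested.

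The mix of clusters differed between the WT libraries. Cluster 2, where the members were highest, was 24.9% of cells in WT+PBS (exact binomial interval 23.1% to 26.8%) and 14.1% in WT+ISO (12.7% to 15.6%), and 17.6% and 17.95% in the libraries labelled KO. The progenitor-like cells, where they were lowest, were 17.4% and 26.6% in WT and 12.97% and 13.8% in the KO-labelled libraries. With the clusters held at the same weights in every library, the summed log2 ratio in WT was -0.29 instead of -0.45, and in the libraries labelled KO it was 0.05. Holding 3 bins of depth within clusters fixed as well gave -0.29 in WT and -0.02 in KO, an alternative chosen after seeing the data. In sums over a library, fewer cells of a type and less RNA per cell cannot be told apart, so the ratios within clusters are given next.

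Within clusters, the summed members were lower with ISO in 6 of 7 WT clusters, with intervals below 0 in 5. The ratios were -0.51 (-0.58 to -0.44) in cluster 2, -0.31 in the progenitor-like cells, -0.24 in the mature neutrophil-like cells, -0.23 in cluster 5, -0.10 in the Mmp12 cluster, -0.06 (-0.19 to 0.07) in the specific-granule cells and 0.08 (-0.14 to 0.29) in the dendritic cell-like cells, 15 cells of which were in WT+ISO. Over all libraries the eosinophil markers summed to 234 CPM in cluster 5 and to at most 2.46 CPM in any other cluster. These markers were far lower in both ISO libraries, as given above. Their part in the cluster 5 ratio was not tested. In the libraries labelled KO none of the 7 clusters had an interval below 0, and 3 had intervals above it: 0.14 in cluster 2, 0.13 in the specific-granule cells and 0.34 in the dendritic cell-like cells. In WT the all-gene median by cluster ran from -0.06 in cluster 2 to 0.05 in the specific-granule cells. Members lower by at least 1.5-fold in WT were 5 of 8 in cluster 2, against 7.4% of all genes. Among these 5, the intervals of Crem (-0.69, -1.495 to 0.07) and Fosb (-0.71, -1.45 to 0.002) held 0. They were 3 of 8 in the mature neutrophil-like cells (4.4%) and 2 of 10 in the Mmp12 cluster (3.73%). Cluster 5 and the dendritic cell-like cells had 1 each (2.06% and 12.1%), and the progenitor-like and specific-granule cells had 0 (1.98% and 3.14%). In the libraries labelled KO, 1 of 8 was lower by that much in the mature neutrophil-like cells (2.8% of all genes). Cluster 5 also had 1 of 8 there (2.1%), and the other clusters had none.

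**Figure D4:**
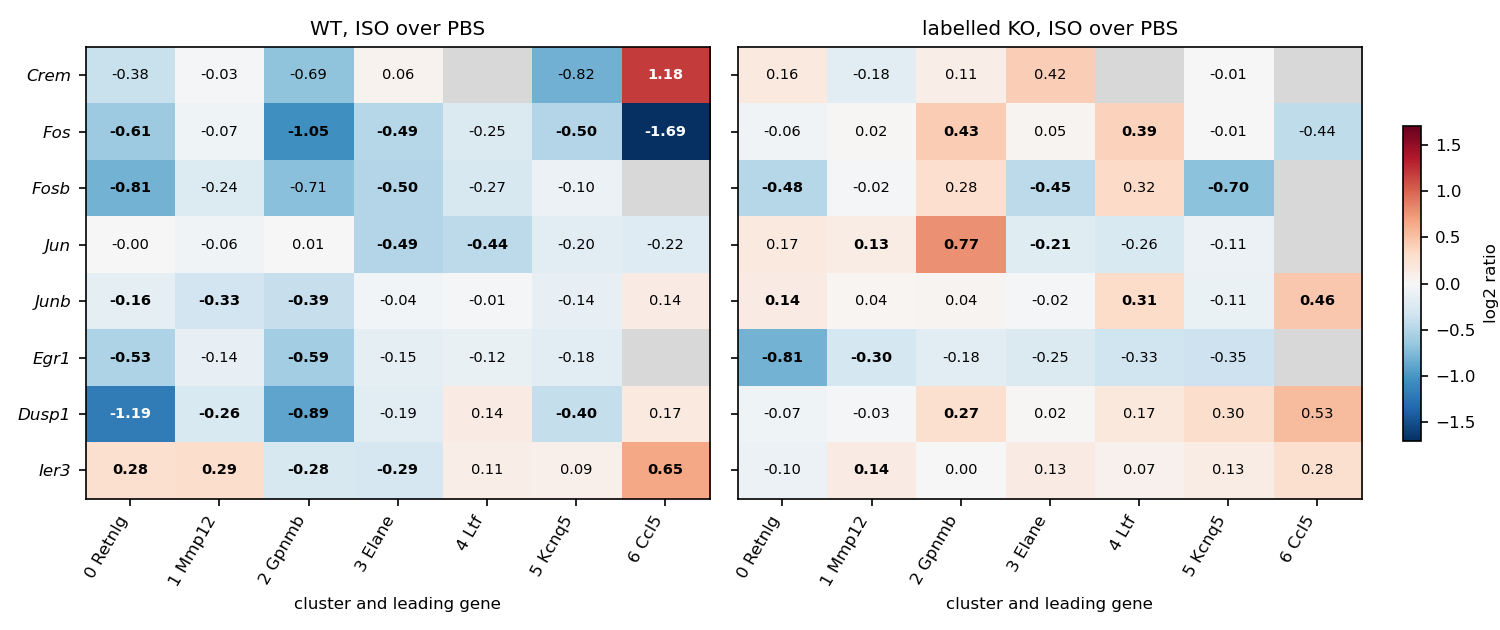
Log2 ratio of CPM, ISO over PBS, for 8 members in each cluster of WT (left) and of the libraries labelled KO (right). Grey marks fewer than 50 UMIs over both libraries and bold an interval that leaves out 0. Fos and Dusp1 are lowest in WT clusters 0 and 2 (with Fos at -1.69 in the small cluster 6), and Ier3 is above 0 in 5 of 7 WT clusters.

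Dusp1 was lowest against PBS in the mature neutrophil-like cells and in cluster 2, and Fos in the dendritic cell-like cells (-1.69, -2.80 to -0.75, from 87 and 10 UMIs) and in cluster 2. Dusp1 in mature neutrophil-like cells was at 244 CPM with PBS and 107 with ISO in WT, a log2 ratio of -1.19 (-1.38 to -0.99), against 206 and 196 CPM in the libraries labelled KO (-0.07, -0.24 to 0.10). In cluster 2 it was at 324 and 174 CPM in WT (-0.89) and at 249 and 300 in the KO-labelled libraries (0.27). Its WT ratio in the Mmp12 cluster was -0.26 (-0.44 to -0.09), and in the specific-granule cells 0.14 (-0.30 to 0.58).

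Fos in cluster 2 was at 477 CPM with PBS and 231 with ISO in WT (-1.05, -1.23 to -0.87), with 239 and 322 CPM in the libraries labelled KO (0.43, 0.24 to 0.62). The WT+PBS value thus stood above the other 3. Fos was below 0 in all 7 WT clusters, but in the Mmp12 cluster the ratio was -0.07 (-0.17 to 0.03).

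Junb followed in 3 WT clusters: -0.39 in cluster 2, -0.33 in the Mmp12 cluster and -0.16 in mature neutrophil-like cells, each with an interval below 0. Jun was lower in WT where Junb was not, in the progenitor-like cells (-0.49, -0.65 to -0.34) and specific-granule cells (-0.44, -0.84 to -0.05), and level in cluster 2 (0.01, -0.26 to 0.27). In the libraries labelled KO the Jun ratio was also below 0 in the progenitor-like cells (-0.21, -0.39 to -0.04). There it was -0.26 (-0.62 to 0.10) in the specific-granule cells and 0.77 (0.53 to 1.01) in cluster 2. Fosb had intervals below 0 in 2 of 6 WT clusters with enough counts and in 3 of 6 in the KO-labelled libraries. Egr1 was below 0 in all 6 clusters with enough counts under both genotype labels, with intervals below 0 in 2 of the 6 under each. In mature neutrophil-like cells its ratio was -0.53 (-0.75 to -0.30) in WT and -0.81 (-1.09 to -0.53) in the KO-labelled libraries.

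Ier3 ran the other way in several WT clusters. It was higher with ISO in mature neutrophil-like cells (391 and 474 CPM, 0.28, 0.16 to 0.40), in the Mmp12 cluster (241 and 295 CPM, 0.29) and in dendritic cell-like cells (164 and 257 CPM, 0.65, 0.15 to 1.14), and lower in cluster 2 (-0.28) and the progenitor-like cells (-0.29). Crem in the dendritic cell-like cells was likewise higher with ISO in WT (1.18, 0.39 to 1.97), from 27 UMIs in 15 cells against 32 in 37 cells. In no other WT cluster with enough counts did its interval leave out 0.

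In the Mmp12 cluster, Areg was at 11.1 CPM (83 UMIs in 446 cells) in WT+PBS and 2.17 CPM (12 UMIs in 296 cells) in WT+ISO, a log2 ratio of -2.36 (-3.37 to -1.48). The libraries labelled KO had 5.82 CPM (70 UMIs in 832 cells) and 6.50 CPM (49 UMIs in 522 cells) there (0.16, -0.40 to 0.71). A UMI of Areg was seen in 7.85%, 1.69%, 4.93% and 4.79% of the cluster's cells in the 4 libraries, at medians of 15844, 18050, 13668 and 14036 UMIs per cell. The macrophage markers were also lower with ISO in WT: over the whole libraries the 6 summed to 143 CPM in WT+PBS, 61.1 in WT+ISO, 273 and 210 CPM, and C1qb within the cluster was at 38.9, 7.06, 94.9 and 57.6 CPM. They were higher in both KO-labelled libraries than in WT+PBS, where Areg was highest, and lower with ISO in the KO-labelled pair, where the Areg intervals overlapped. Their part in the Areg result was not tested.

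Shares of cells with a UMI, compared at equal depth, were also lowest in WT+ISO for Dusp1, Fos and Junb. With every cell thinned to 2000 UMIs, which left out 127 to 218 shallower cells per library, Dusp1 had a UMI in 22.3% of cells in WT+PBS (20.5% to 24.2%), 13.4% in WT+ISO (11.97% to 14.9%), 18.7% in KO+PBS and 20.8% in KO+ISO. Before thinning the shares were 49.5%, 39.5%, 46.6% and 47.6%. Fos was seen in 30.5%, 20.8%, 23.5% and 24.04% of thinned cells and Junb in 37.1%, 31.1%, 39.6% and 40.2%. For Fos the WT+ISO interval (19.1% to 22.6%) overlapped those of KO+PBS (21.9% to 25.2%) and KO+ISO (22.1% to 26.1%). The Fos interval of WT+PBS (28.5% to 32.5%) lay above all of these. Crem was instead lowest in KO+PBS (2.3%) and Egr1 in KO+ISO (10.2%). These shares carry the mix of clusters. Cluster 2 kept 418 of 551 cells in WT+PBS, 221 of 319 in WT+ISO, 355 of 490 in KO+PBS and 224 of 366 in KO+ISO. Thinned shares in cluster 2 thus describe its deeper cells. Within the WT mature neutrophil-like cells, Dusp1 was at 36.3% with PBS and 18.3% with ISO. Junb was at 38.8% and 40.3% there and at 55.5% and 50.2% in cluster 2, with overlapping intervals in both. Cells with 3 or more of the 10 members were 25.8% of WT+PBS, 15.8% of WT+ISO, 23.0% of KO+PBS and 24.7% of KO+ISO. In cluster 2 they were 51.9% of WT+PBS and 36.2% of WT+ISO, and 45.1% and 48.7% in the libraries labelled KO. In the progenitor-like cells they were 4.17%, 2.34%, 9.17% and 8.96%.

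The members also met in the same cells slightly more often than their shares alone would give. Within cluster and library, in 8593 thinned cells, 32 of the 38 pairs with at least 5 expected joint cells were above an observed-to-expected ratio of 1, with a median of 1.099. The highest were Fosb with Egr1 (82 cells against 50.5, 1.63), Fosb with Dusp1 (1.59) and Junb with Areg (1.55, 19 cells against 12.3). Fos with Ier3 was at 1.00. These ratios are descriptions of sparse counts, and the cells of a library share their culture. No ratio for pairs of other genes is given here, so the excess is not shown to be particular to the members.

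Over the 28 sums of UMIs by cluster and library, the 5 genes outside the list whose profile was most like the mean of the members were March1 (Pearson r = 0.93), Rbm47 (0.93), Gm2a (0.93), Rnf149 (0.93) and Sh3bgrl3 (0.93), among 7709 genes. The points share libraries, clusters and depth. Within the list, Junb (0.80), Ier3 (0.75), Dusp1 (0.74), Egr1 (0.71) and Fos (0.70) followed the mean of the other 9 most closely, and Nr4a1 (0.22), Fosb (0.28) and Crem (0.28) least.

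Other immediate early and CREB target genes were mostly lower with ISO in WT. Of 31 listed, 30 could be compared. By at least 1.5-fold, 8 were lower (Egr3, Nr4a3, Egr2, Ptgs2, Pde4b, Atf3, Sik1 and Nr4a2), against 6.82% of all genes, and 1 was higher, against 1.66%. Of the 30, 24 were below 0, against 53.4% of all genes. Their median log2 ratio was -0.33 against -0.02 for all genes. The lowest were Egr3 (11.6 CPM with PBS and 4.76 with ISO, -1.29), Nr4a3 (8.20 and 3.74, -1.13) and Egr2 (11.7 and 5.61, -1.06), relatives of Egr1 and Nr4a1. The highest were Fosl1, another AP-1 subunit (9.68 and 17.01 CPM, 0.81), Dusp2 (4.43 and 5.82 CPM, 0.39) and Myc (33.6 and 38.7 CPM, 0.20). In the libraries labelled KO the median of the 30 genes was 0.08. There 1 was lower past 1.5-fold (Nr4a3, -0.66), against 1.77% of all genes, and none was higher, against 1.4%. Pde4b, a phosphodiesterase that breaks down cyclic AMP and is itself raised by it, was at 118 and 64.6 CPM in WT (-0.87) and at 82.7 and 88.03 CPM in the KO-labelled libraries. It is described here after its values were seen, and its level was highest in WT+PBS, as was that of Fos.

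Among the genes that lead from Gs-coupled receptors to CREB, few were past 1.5-fold. Of 22, 19 could be compared in WT. None was lower by 1.5-fold, against 6.82% of all genes. Only 1 was higher by that much (Adcy3, an adenylyl cyclase, 1.93 and 3.13 CPM, 0.70), against 1.66%. Of the 19, 17 were below 0, against 53.4% of all genes, with 10 intervals below 0 and 2 above. Their median was -0.17, against -0.02 for all genes. The lowest were the CREB coactivators Crtc3 (85.1 and 65.5 CPM, -0.38, -0.47 to -0.29) and Crtc2 (5.62 and 4.49 CPM, -0.32) and the adenylyl cyclase Adcy9 (17.96 and 14.7 CPM, -0.29). Prkar2b, a regulatory subunit of protein kinase A, was next highest after Adcy3 (31.4 and 40.3 CPM, 0.36). In the libraries labelled KO none of the 19 was past 1.5-fold, against 1.77% of all genes lower and 1.4% higher, and their median was -0.01.

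Of 6 EGF family ligands beside Areg, 2 could be compared in WT. Hbegf was at 6.56 CPM with PBS and 4.46 with ISO (-0.56, -0.90 to -0.22), and at 6.72 and 6.87 CPM in the libraries labelled KO (0.03, -0.30 to 0.36). Egf was at 1.07 and 0.952 CPM in WT, with a ratio that was not resolved at this depth (-0.16, -0.99 to 0.67).

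Most heat shock genes did not show the members' direction in WT. Of 7, 6 could be compared, with a median of 0.13, and 4 had intervals above 0, led by Hsph1 (17.3 and 21.8 CPM, 0.33), Hsp90aa1 (669 and 813 CPM, 0.28) and Dnaja1 (163 and 186 CPM, 0.19). Hspa1a, the inducible HSP70 gene, had 232 UMIs in WT+PBS, 11 in WT+ISO, 18 in KO+PBS and 51 in KO+ISO, or 9.51, 0.374, 0.630 and 2.64 CPM. It was the only one of the 6 below 0 in WT (-4.67) and the only one past 1.5-fold in the libraries labelled KO, where it was higher (2.06). Hspa1b, the other inducible HSP70 gene and the one with too few UMIs to be compared, had 30 UMIs in WT+PBS, 7 in WT+ISO, 6 in KO+PBS and 14 in KO+ISO. The part of both genes in the members' result was not tested.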

How the data were processed

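The authors deposited raw counts of UMIs per gene and cell, unnormalized, 1 filtered 10x matrix per library, for barcodes kept as cells. The file header names Cell Ranger 7.0.0, and the submitters' processing notes name Cell Ranger 6.0.0, Seurat and mm10. The treatment of introns and the rule that assigned barcodes to cultures are not given in the sources used here. The members and gene lists were chosen with earlier results of these data known.

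The 12 multiplexing tags were left out, and cells were removed below 200 genes or above 10% mitochondrial UMIs, which left 9303 of 9525. Scrublet (expected rate 6%) called 17 doublets (0.183%), far below that rate, and all were kept. Whether it missed doublets was not tested. UMIs were summed per library or cluster and given as CPM. Ratios between libraries were computed for genes with at least 50 UMIs over both, and a fold of 1.5 was the threshold of size. Intervals at 95% are exact Poisson for levels, Clopper-Pearson for shares and conditional binomial for ratios, and a normal approximation for differences of ratios. They cover counting error only. The code for the ratios was run on simulated independent Poisson counts, the model that the intervals assume. That run cannot show how the intervals behave where UMIs gather in few cells, as for Areg.

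Cells were clustered with scanpy 1.11.5 (2000 variable genes without the members and lists, 30 principal components, 15 neighbours, Leiden, seed 0) at resolution 0.35, the lowest from 0.1 in steps of 0.05 that gave at least 6 clusters of at least 1% of cells. Cluster names come from marker lists. Thinning drew 2000 UMIs per cell. Likeness was Pearson's r of log2(CPM + 10) profiles of genes with at least 1000 UMIs.

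Named genes are the 10 members, the 3 genes of each list with the largest fold in each direction in WT, and the 5 most alike. Alternatives were other scalings, cell filters, weights, clusterings and gene minimums. Fixed weights of clusters with depth bins, and leaving out cluster 2, were added after seeing the data. Promoter windows and gene positions come from RefSeq (GRCm38.p6). Positions are not reported for all members. The level of the gene targeted in the KO mice is not reported here.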

Additional observations from a re-analysis of the deposited data

Results flagged for a closer look

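For 6 members the ISO-to-PBS log2 ratio lay below 0 in WT and above 0 in the libraries labelled KO. In WT 53.4% of all genes compared were lower at all. The share of all genes with such opposite directions is not given here, so the count is not shown to be particular to the members. The difference, WT minus KO, was -3.14 for Areg, -0.86 for Dusp1, -0.68 for Fos, -0.54 for Junb, -0.37 for Jun and -0.21 for Ier3. With 1 library per group the difference was not tested, and its intervals, which all lay below 0, cover counting error only. In the libraries labelled KO the ratio of Ier3 (0.06, 0.01 to 0.11) had an interval above 0, while those of the other 5 held 0. For Ier3 the opposite directions were lost with clusters held at fixed weights, where the difference was 0.02.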

How the results depend on the processing

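No paired analysis was possible because there is only 1 library in each group. Of 221 alternative values over the members, 174 stayed within the counting interval of the value reported (counts within 1.5 times) and 47 moved outside it. Of 117 log2 values among them, 10 changed sign, all in KO+ISO over KO+PBS or KO+PBS over WT+PBS, and none of these from a reported interval that left out 0. Of 550 log2 values for single genes, 43 changed sign, and 10 of these did so from a reported interval that left out 0. The cause of these shifts was not tested. For WT+ISO over WT+PBS the summed log2 ratio was -0.40 with the 20 most abundant genes taken out of the totals, -0.41 with median-of-ratios size factors, -0.65 with equal weight per cell (6 members lower by 1.5-fold), -0.49 with cells thinned to 2000 UMIs, -0.34 without cells under 4000 UMIs (1 member lower), -0.55 without Ier3, and -0.29 with clusters at fixed weights (median -0.35). Of the settings chosen after seeing the data, fixed clusters and depth bins gave -0.29 and leaving out cluster 2 gave -0.33 (1 member lower). Ier3 was 0.027 with fixed clusters, 0.038 without cells under 4000 UMIs and 0.062 without cluster 2, and Crem was 0.14 with fixed clusters and depth bins.

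For KO+ISO over KO+PBS the sum was 0.060 without the 20 most abundant genes, 0.052 with fixed clusters and -0.018 with fixed clusters and depth bins, and Ier3 was -0.016 with equal weight per cell, -0.025 with thinned cells and -0.10 with clusters and depth bins. For KO+PBS over WT+PBS the sum was -0.15 with equal weight per cell (median -0.19, 1 member lower), -0.090 with fixed clusters (median -0.17, 2 lower), -0.12 with thinned cells (1 lower), 0.026 without cells under 4000 UMIs, -0.071 with clusters and depth bins (1 lower), 0.065 without cluster 2 and -0.078 without Ier3. The stricter cell filter and leaving out called doublets each gave 1 member lower there. For KO+ISO over WT+ISO the sum was 0.53 with equal weight per cell, 0.25 with fixed clusters (median 0.24), 0.41 with thinned cells (5 higher), 0.36 without cells under 4000 UMIs, 0.20 with clusters and depth bins (median 0.21, 1 higher) and 0.42 without cluster 2, and Crem was -0.13 with clusters and depth bins.

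The difference between the ISO ratios of the summed members, WT minus KO, was -0.68 with equal weight per cell, -0.34 with fixed clusters, -0.53 with thinned cells, -0.34 without cells under 4000 UMIs, -0.27 with clusters and depth bins and -0.35 without cluster 2, and that of Ier3 was 0.018 with fixed clusters and 0.10 with clusters and depth bins. Depth limited Nr4a1 and Areg most, with 93 to 142 and 13 to 91 UMIs per library.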
